A study of Canis lupus familiaris with 8 samples.

Results

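T cells that descend from 1 ancestor carry the same receptor, so a receptor found in several cells of a sample marks a clone. Here, CD8 T cell clones that had grown large in the blood of healthy dogs were set against CD8 T cells whose receptor was seen only once. A cell entered when it had 500 to 20000 unique molecular identifiers (UMIs, each standing for 1 captured transcript), at most 10% of them mitochondrial, at least 1 CD8A UMI, no CD4 UMI and exactly 1 productive T cell receptor beta (TRB) rearrangement. Cells of a dog with the same TRB V gene, J gene and junction amino acids formed a clone. Clones of 5 or more cells were called expanded, and clones of 1 cell singletons. The 2 sides held 2625 cells in 153 expanded clones and 1641 singletons, together 4266 of 31909 cells that passed quality control. A further 829 cells in 331 clones of 2 to 4 cells lay between both and are given without a test. Since TRB junctions, CD8A and CD4 chose the cells, their values are descriptions.

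The cells were TCRαβ+ T cells sorted from blood mononuclear cells of 4 healthy Beagles and cryopreserved after sorting. They were sequenced with 5′ single-cell RNA sequencing and a matched V(D)J library for each dog. The female dog 1 was aged 5 years, the male dogs 2 and 3 were both aged 7 and the male dog 4 was aged 9. Both sides came from the same library of each dog, which makes the dog the replicate (n = 4) and keeps age and sex the same within each comparison. All samples were thawed together for a single run.

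Naive CD8 T cells each carry a receptor of their own and recirculate through lymph nodes. After meeting antigen, a naive cell divides, its descendants keep its receptor, and many of them acquire granules with granzymes and perforin, receptors otherwise known from natural killer (NK) cells, and adhesion molecules for tissues and inflamed vessels. In 1 blood sample, a receptor seen once may belong to a naive cell or to a clone too small to be drawn a second time.

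The junctions of the leading clones are shown because they are what defines a clone. The largest clones of the 4 dogs had different rearrangements. The TRB of dog 4's second clone was also read in dog 1, as given below. The sequences run 5′ to 3′ over the junction, from the codon of the conserved cysteine to that of the conserved phenylalanine or tryptophan. Lower case marks bases equal to the germline V gene, read from the 5′ end, or to the germline J gene, read back from the 3′ end, with the germline as the deposited lists give it. Capitals mark all bases between the first departure from V and the last from J.
Dog 1, TRB of the largest clone (39 cells, TRBV25 and TRBJ2-1): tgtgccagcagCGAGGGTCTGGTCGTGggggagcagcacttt
Dog 2, TRB of the largest clone (60 cells, TRBV25 and TRBJ2-5): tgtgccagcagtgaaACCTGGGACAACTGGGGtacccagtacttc
Dog 3, TRB of the largest clone (146 cells, TRBV5-2 and TRBJ1-2): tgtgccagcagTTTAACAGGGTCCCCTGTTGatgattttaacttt
Dog 4, TRB of the largest clone (120 cells, TRBV3-1 and TRBJ2-1): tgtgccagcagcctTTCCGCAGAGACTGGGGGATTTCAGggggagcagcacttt
Dog 4, TRB of the second clone (108 cells, TRBV1 and TRBJ2-3): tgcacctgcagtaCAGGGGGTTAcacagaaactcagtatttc

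In 3 of the 12 clones that ranked 1 to 3 within their dog, the alpha chain (TRA) joined TRAV9-11 to TRAJ28. Their TRA junctions are shown because they had the same length (48 bases) and the same J-derived part in 2 dogs. Between the V and J parts lay 5, 3 and 6 bases, marked by capitals. The TRB chains beside them differed.
Dog 1, TRA of the largest clone: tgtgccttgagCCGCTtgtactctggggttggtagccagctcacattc
Dog 1, TRA of the clone ranked 3 (20 cells): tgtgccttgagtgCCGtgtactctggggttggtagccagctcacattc
Dog 3, TRA of the clone ranked 3 (116 cells): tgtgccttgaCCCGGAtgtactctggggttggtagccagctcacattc

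The libraries of dogs 1 and 4 had receptors in common, and how this came about was not tested. They shared 54 TRB nucleotide sequences, carried by 69 cells of dog 1 and 1060 cells of dog 4. In 41 of these a TRA was read in both dogs, and in 40 it was the same one. Dogs 2 and 3 shared 1 TRB sequence, with different TRA chains, and the other 4 pairs of dogs shared none. The cells with a shared TRB had no barcode in common, and the 81 barcodes that dogs 1 and 4 shared in all never came with the same TRB. Among the CD8 cells studied here, 27 cells of dog 1 carried a TRB that was also read in dog 4, below called a TRB of dog 4. Of these, 5 were in expanded clones, 6 in clones of 2 to 4 and 16 were singletons. The 5 cells were 1 of dog 1's 16 expanded clones and had the TRB of dog 4's 108-cell clone shown above. Of dog 4's 62 expanded clones, 16 had a TRB that was also read in CD8 cells of dog 1. A gene known by its identifier only, ENSCAFG00000024323, was picked after its values were seen. It was at 399 CPM (UMIs per 1000000 UMIs) in the 27 cells (43 UMIs) and at 36.8 CPM in the other expanded and singleton cells of dog 1, against 304 CPM in dog 4, 42.5 in dog 2 and 38.8 in dog 3. Results are therefore also given without these 27 cells and without dog 1. The dog 4 cells with a shared TRB were left in. Cells whose receptor was read in 1 library alone cannot be examined in this way.

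Expanded clones took up a larger part of the CD8 cells in dogs 3 and 4 than in dogs 1 and 2. There were 16, 29, 46 and 62 of them in dogs 1 to 4, with 184, 377, 1053 and 1011 cells. This was 32.1%, 34.9%, 57.6% and 62.8% of the CD8 cells with 1 TRB (46.8% ± 15.6, SD, n = 4), whereas expanded clones made up 4.85%, 4.72%, 6.90% and 12.1% of all clones. Singletons made up 47.7%, 46.4%, 28.3% and 21.5% of the cells. The shares depend on how many cells were read, 574, 1081, 1829 and 1611 in dogs 1 to 4, since a clone has more chances to be drawn 5 times from a larger sample.

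By number of cells, no single clone dominated a dog. The largest held 39, 60, 146 and 120 cells, or 21.2%, 15.9%, 13.9% and 11.9% of the expanded cells, and 7, 10, 24 and 32 clones had 10 or more cells. At the border of the rule, 37 clones had 4 cells and stayed out and 33 clones had 5 cells and entered.

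**Figure D1:**
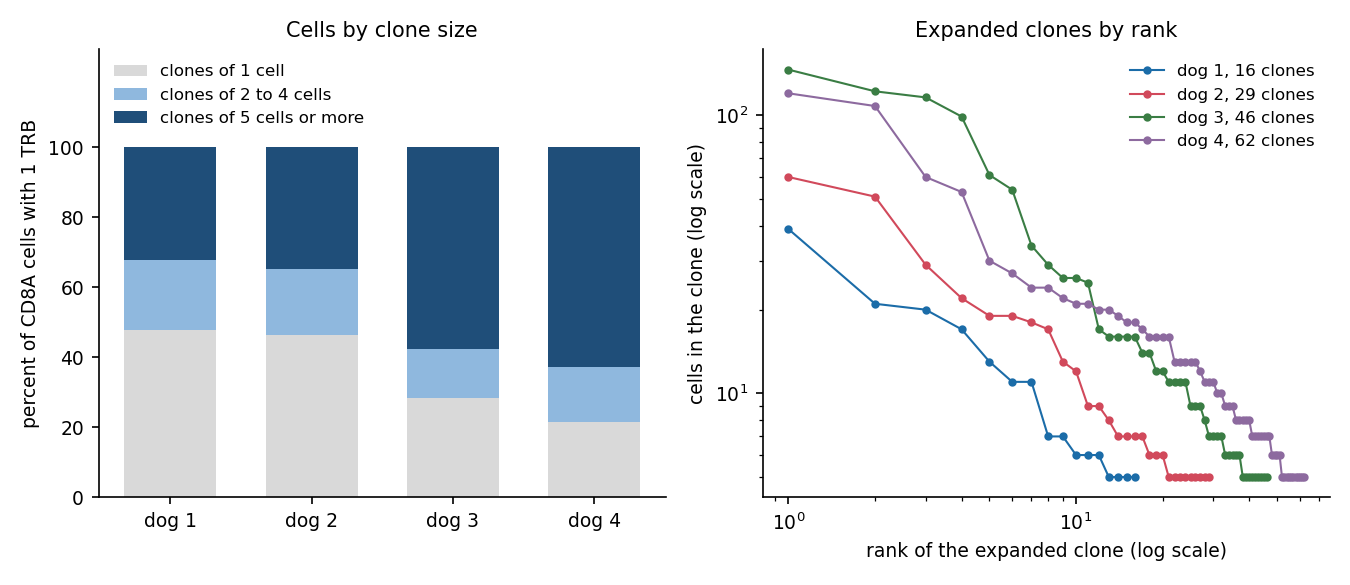
Clone sizes among CD8A cells with 1 TRB. The left panel stacks, for each dog, the percent of cells in clones of 1 cell, of 2 to 4 cells and of 5 or more cells; the right panel plots the cells in each expanded clone (log scale) against its rank (log scale), 1 line per dog. Clones of 5 or more cells hold between 32.1% and 62.8% of the cells, and the sizes fall gradually from a largest clone of 39 to 146 cells.

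Cells grouped by their TRB also shared their TRA, which the rule had not used. In 146 expanded clones at least 2 cells had a TRA, and 2064 of their 2096 cells with a TRA (98.5%) carried the commonest TRA of their clone. Pairs of cells from 1 expanded clone shared a TRA in 42162 of 42432 cases (99.4%), and pairs from different expanded clones of a dog in 33 of 672072 (0.00491%). Large clones weigh more in these pairs, so the count over clones is given too: in 134 of the 146 clones every cell with a TRA agreed. At nucleotide level, 150 of 153 expanded clones had a single TRB junction. The other 3 had a second one in 1 cell each, which differed from the first by A13C and T18A in dog 2 and by G51A and T27G in 2 clones of dog 4. Here positions count from 1 at the first base of the junction, and the commoner base stands first.

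In 9 expanded clones at least 50% of the cells carried 2 TRA rearrangements. The clearest case was dog 4's 120-cell clone, in which 93 cells had both. TRAV24 with TRAJ38 was read in 111 of its cells and TRAV9-7 with TRAJ45 in 101. Conversely, a TRA was nearly absent from dog 4's 108-cell clone, where 2 cells had one. In 4 expanded clones no cell had a TRA row.

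Cells with the receptor of an expanded clone were also looked for among cells outside the rule. Over all 23107 quality-controlled cells with 1 TRB, whatever their CD8A and CD4 counts, 3004 carried the TRB of an expanded clone. Of these, 87.4% had CD8A alone, 7.72% had neither co-receptor, 2.06% had CD4 alone and 2.83% had both. The 2625 cells with CD8A alone are those that defined the clones, so the first share is largely set by the rule. The cells outside the rule were 232 with neither, 62 with CD4 alone and 85 with both. Cells with neither are frequent in these libraries, at 33.8% of all cells with 1 TRB, and CD4 alone was read in 42.4%. Of the 1641 singletons, 1539 were also the only cell with their receptor when every cell was counted.

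The shares of clones with TRAV9-11/TRAJ28 and with TRAV24 gave no difference between the sides that 4 dogs could establish. J genes by themselves were not compared. A TRAV9-11/TRAJ28 chain was found in 40.0%, 10.3%, 15.6% and 5.00% of expanded clones with a TRA in dogs 1 to 4, and in 15.2%, 22.5%, 13.3% and 6.76% of singletons. The share was higher in expanded clones in dogs 1 and 3 and lower in dogs 2 and 4, with a mean difference of 3.28 percentage points ± 15.6 (SD, n = 4; two-sided exact permutation test over dogs, p = 0.75), and of -3.89 without dog 1. The smallest p this design allows is 0.13, and none of 9 measures of receptors or depth reached it (0.25 to 1, or 0.964 to 1 after Benjamini-Hochberg adjustment). Measures of TRB were among the 9, and since the rule used TRB, these are descriptions. TRBV25 or TRBV28 was used by 31.25%, 10.3%, 17.4% and 12.9% of expanded clones in dogs 1 to 4. Among singletons the shares were 17.9%, 18.5%, 16.2% and 12.1%. Without a test, 3 TRBV genes were rarer in expanded clones in 4 of 4 dogs. TRBV20 had 0 of 153 expanded clones and 21 of 1641 singletons, TRBV29 0 and 34, and TRBV4-4 1 and 26. They averaged 1.33%, 2.01% and 1.62% of singletons, and at such shares few clones are to be looked for in 16 to 62 per dog. In clones of 2 to 4 cells TRBV20 averaged 0.24%, whereas TRBV29 (2.90%) and TRBV4-4 (2.35%) lay above the singletons. The 3 genes were picked after their values were seen.

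Median depth per cell was higher in expanded clones in dogs 1 and 2 and lower in dogs 3 and 4. Median UMIs per cell were 4006, 4257, 3409 and 3730 in expanded clones and 3941, 3871, 4075 and 3928 in singletons (difference -103 ± 445, SD, n = 4; two-sided exact permutation test, p = 0.75), and 84.3 higher in expanded clones without dog 3. Cells under 2000 UMIs were more frequent in expanded clones in 4 of 4 dogs, at 6.52%, 8.22%, 8.64% and 7.62% against 4.38%, 6.77%, 4.63% and 7.20%. The median mitochondrial share was 1.80%, 2.04%, 2.03% and 1.96% in expanded clones and 2.34%, 2.36%, 2.78% and 1.91% in singletons, lower in 3 of 4 dogs (difference -0.39 ± 0.34 percentage points, SD, n = 4; two-sided exact permutation test, p = 0.25). With each cell thinned to 2000 UMIs and shallower cells left out, 145 genes were higher and 208 lower of 6589 tested. The part of the mitochondrial share in the results was not tested. UMIs were summed over the cells of a side in each dog, which gave 8 sums of 766368 (dog 1, expanded) to 3914974 UMIs (dog 4, expanded). In such sums, fewer cells with a transcript and less of it in each cell cannot be told apart. Levels are CPM of all UMIs of a sum. They compare sides, not genes. Fold changes and adjusted p-values are from edgeR's quasi-likelihood test over all genes tested, with the dog as a block.

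In expanded clones 9 of 13 naive and memory genes tested were lower than in singletons, and 8 of 11 NK receptor genes and 4 of 9 cytotoxic genes were higher. Of 8143 genes tested, 224 (2.75%) were higher in expanded clones and 278 (3.41%) were lower, in all 6.16%. The median log2 fold change of all genes was 0.00. Without the dog 1 cells that carried a TRB of dog 4, 221 were higher and 277 lower, and 216 and 272 of the genes above were still called. Fewer genes passed with 3 dogs, with 96 higher and 123 lower without dog 1, 110 and 129 without dog 3, and 161 and 163 without dog 2. Of the 8143 genes, 7.71% had 4 expanded values that did not overlap the 4 singleton values, 4.88% with all expanded values above and 2.84% with all below, and statements on overlap are to be read against these shares. Without the largest clone of each dog 148 and 187 genes were called, while the median log2 fold change of the genes above was 0.58 instead of 0.59 for the higher and -0.58 instead of -0.60 for the lower ones. With 1 cell per expanded clone, which left expanded sums of 57777 to 247627 UMIs, 35 and 30 were called, with medians of 0.48 instead of 0.54 and -0.40 instead of -0.53.

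**Figure D2:**
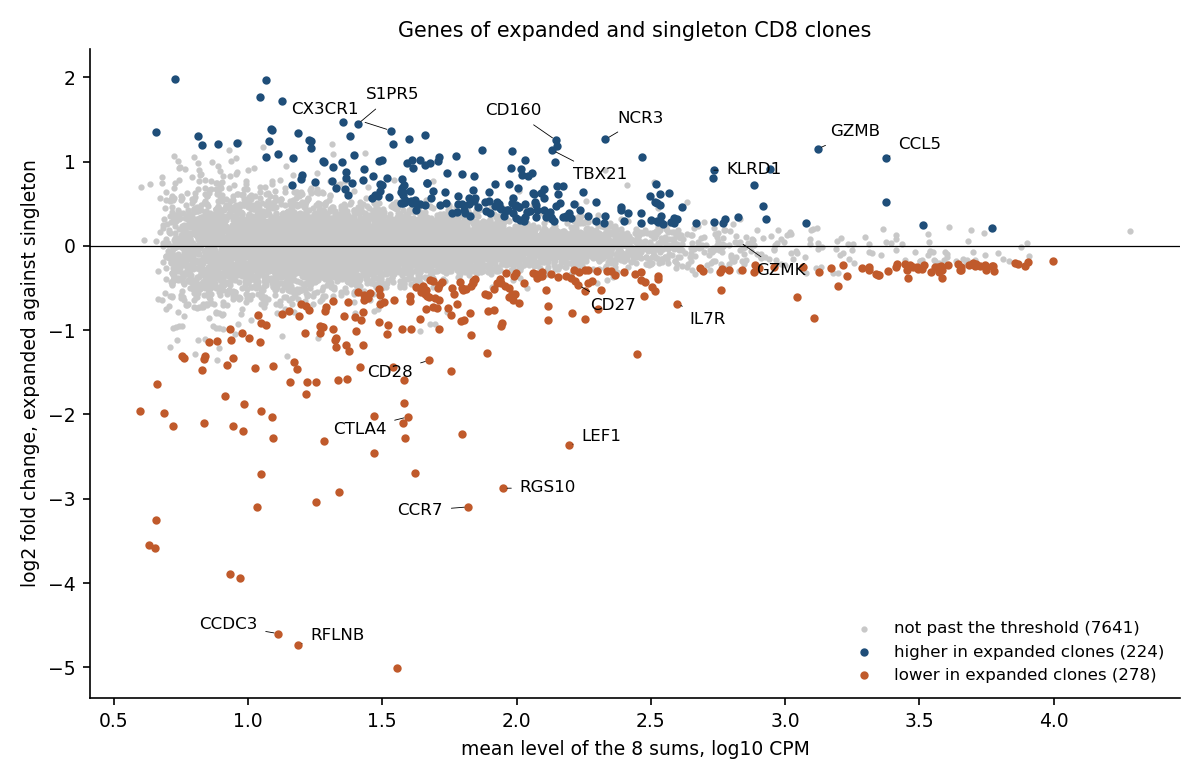
Log2 fold change of expanded against singleton clones (vertical axis) against the mean level of the 8 sums (log10 CPM, horizontal axis) for 8143 genes. Blue points are 224 genes higher and orange points 278 genes lower in expanded clones at an adjusted p under 0.05, and named genes are labelled. The lower genes reach larger changes than the higher ones, with CCR7 at -3.1 and CX3CR1 at 1.37.

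Naive and memory genes were lower in expanded clones. Of 13 tested, 9 fell and none rose, with a median log2 fold change of -0.59. CCR7, the receptor that guides T cells into lymph nodes, was at 15.7, 18.6, 20.7 and 5.11 CPM in expanded clones of dogs 1 to 4 and at 111, 123, 173 and 62.8 CPM in singletons. Every expanded value lay below every singleton value (log2 fold change -3.1 ± 0.13, SE, adjusted p = 1.61e-08). LEF1, a transcription factor of naive T cells, was at 40.5, 52.9, 51.9 and 47.0 CPM in expanded clones and at 355, 274, 278 and 154 CPM in singletons (-2.37 ± 0.15, adjusted p = 7.27e-07). The expanded values of LEF1 were close to each other, and among singletons dog 4 was lowest for both genes.

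CD28, the co-stimulatory receptor that naive cells need for activation, was at 11.7, 40.9, 34.4 and 20.4 CPM in expanded clones and 48.9, 80.6, 67.6 and 73.9 in singletons (-1.36 ± 0.16, adjusted p = 0.00018), again without overlap. IL7R, the receptor for the survival cytokine interleukin-7, was at 129, 472, 434 and 245 CPM against 319, 522, 605 and 449 (-0.69 ± 0.13, adjusted p = 0.00617). It was lower in each dog, but the 2 sides overlapped because the dogs differed. The inhibitor of E proteins ID3 (-2.46), the nuclease SAMHD1 (-1.78), the chromatin organiser SATB1 (-0.59), FOXP1 (-0.50) and CD27 (-0.46) made up the rest. CD27 was not past the threshold without dog 1 (adjusted p = 0.0728) or dog 4 (0.0642), nor FOXP1 without dog 1 (0.0701) or dog 2 (0.056). TCF7 (-0.41), a transcription factor of the same programme, did not pass (adjusted p = 0.239), and neither did KLF3 or S1PR1.

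Cytotoxic genes were split. Of 9 tested, 4 rose and none fell, with a median of 0.74. GZMB, the granzyme that triggers apoptosis through caspases, was at 1982, 1238, 2116 and 1964 CPM in expanded clones and 816, 759, 476 and 1221 CPM in singletons. The sides did not overlap, with the highest singleton value in dog 4 just below the lowest expanded value in dog 2 (1.15 ± 0.17, adjusted p = 0.00126). Perforin (PRF1), which forms pores in the target membrane, was at 131, 123, 238 and 263 CPM against 61.1, 106, 74.4 and 121 CPM (1.0 ± 0.17, adjusted p = 0.00321). Cystatin F (CST7), an inhibitor of granule proteases, rose by 0.83 ± 0.09 (adjusted p = 6.2e-05). The death ligand FASLG rose by 0.74, and was not past the threshold without dog 1 (0.74, adjusted p = 0.109), dog 3 (0.38, 0.156) or dog 4 (0.82, 0.0567).

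GZMK, a granzyme of memory cells, was at 418, 957, 891 and 559 CPM in expanded clones and 380, 676, 787 and 757 in singletons, a log2 fold change of 0.05 ± 0.11 (adjusted p = 0.889). It was higher in dogs 1 to 3 and lower in dog 4. GZMA was at 360, 78.1, 232 and 479 CPM against 127, 172, 53.6 and 213 CPM. It was lower in dog 2 and higher in the other dogs (0.90 ± 0.33, adjusted p = 0.146). CTSW, SRGN and TNFSF10 did not pass either.

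Of 8 chemokines and cytokines tested, 3 rose and 1 fell (median 0.24). CCL5, which draws T cells and monocytes, was at 5623, 3362, 951 and 3068 CPM in expanded clones and 2912, 1429, 922 and 678 CPM in singletons (1.05 ± 0.22, adjusted p = 0.0128). Dog 3 had nearly equal values on both sides, and without dog 1 the gene did not pass (1.11, adjusted p = 0.0771). CCL4, a chemokine released by activated T cells, rose by 0.91 ± 0.18 (adjusted p = 0.0103) and did not pass without dog 1 (0.89, 0.0812). TGFB1 rose by 0.30 and did not pass without any 1 of the dogs (adjusted p = 0.109 to 0.261). Lymphotoxin beta (LTB), which organises lymphoid tissue, fell from 1440, 1249, 1398 and 1160 CPM in singletons to 1130, 1023, 641 and 837 CPM in expanded clones (-0.61 ± 0.11, adjusted p = 0.00456), without overlap. IFNG and TNF, the main cytokines of effector T cells, were at or below 29.0 CPM in each sum and did not pass.

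NK receptors and their adaptors were higher in expanded clones. Of 11 tested, 8 rose and none fell, with a median of 0.74. NCR3 (NKp30), an activating receptor of NK cells, was at 501, 162, 291 and 282 CPM in expanded clones against 156, 108, 77.5 and 136 CPM in singletons (1.26 ± 0.16, adjusted p = 0.000312). CD160, a receptor for classical and non-classical MHC class I, was at 202, 260, 152 and 184 CPM against 74.2, 121, 59.1 and 71.1 CPM (1.25 ± 0.09, adjusted p = 1.39e-06). Neither gene overlapped between sides. KLRD1 (CD94), the partner chain of NKG2 receptors, was at 663, 570, 891 and 742 CPM against 274, 386, 382 and 438 CPM (0.90 ± 0.10, adjusted p = 0.000152).

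KLRK1 (NKG2D) rose by 0.74 ± 0.11, SLAMF7 by 1.01 ± 0.15 and CD244 (2B4) by 1.0 ± 0.14, all without overlap between sides. KLRG1, a receptor of late effector cells, rose by 0.71, but not past the threshold without dog 1 (0.58, adjusted p = 0.111) or dog 3 (0.49, 0.102). The same held for HCST (DAP10), the adaptor of NKG2D, at 0.57 over all dogs, 0.49 without dog 1 (0.107) and 0.42 without dog 3 (0.161). KLRB1 (CD161), FCER1G, the signalling chain shared by Fc receptors and NK receptors, and CD226 did not pass. KLRB1 was at 93.9, 189, 614 and 447 CPM in expanded clones and 109, 190, 157 and 263 CPM in singletons, about equal in dogs 1 and 2 and far apart in dogs 3 and 4.

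Of 14 effector transcription factors tested, 4 rose and none fell (median 0.37). TBX21 (T-bet), which drives cytotoxic differentiation, was at 154, 126, 260 and 214 CPM against 59.4, 92.5, 60.4 and 120 CPM, without overlap (1.14 ± 0.19, adjusted p = 0.00308). ZNF683 (Hobit), a factor of resident and long-lived effector cells, was at 111, 106, 78.2 and 67.4 CPM against 44.5, 59.6, 51.8 and 34.5 CPM (0.82 ± 0.12, adjusted p = 0.000721). ZEB2 (1.06) did not pass without dog 1 (1.04, adjusted p = 0.0739) or dog 3 (0.58, 0.066). EOMES (0.64) did not pass without dog 1 (0.50, 0.126), dog 2 (0.71, 0.0542) or dog 3 (0.50, 0.2). The other 10, PRDM1 and RUNX3 among them, did not pass.

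Homing and adhesion genes changed in both directions, with 7 of 16 higher and 1 lower (median 0.33). CX3CR1, the fractalkine receptor of cells that patrol vessels, was at 28.7, 31.2, 79.5 and 58.5 CPM in expanded clones and 8.73, 25.7, 14.4 and 25.5 CPM in singletons (1.37 ± 0.26, adjusted p = 0.00618). S1PR5, a sphingosine phosphate receptor that keeps effector cells in the circulation, was at 31.3, 27.6, 56.9 and 35.5 CPM against 4.37, 14.3, 9.92 and 24.9 CPM (1.44 ± 0.28, adjusted p = 0.00816). Without dog 3 neither passed, with 0.86 and adjusted p = 0.0518 for CX3CR1 and 0.96 and 0.0786 for S1PR5. ITGAM (CD11b), a chain of the complement receptor 3, was at 124, 82.3, 270 and 320 CPM against 65.5, 74.4, 55.0 and 139 CPM (1.18 ± 0.23, adjusted p = 0.00703).

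The integrin chains ITGB7 (0.51 ± 0.08, adjusted p = 0.00201) and ITGAL (0.52 ± 0.09, 0.00441) rose without overlap. ITGB2 (0.39) did not pass without dog 1 (0.38, adjusted p = 0.155) or dog 3 (0.23, 0.215). The gut homing receptor CCR9 was higher in dogs 2 to 4 and lower in dog 1 (1.02), and did not pass without dog 2 (0.64, adjusted p = 0.0685). ITGB1, the beta chain of receptors for matrix proteins, fell by 0.53 ± 0.11 (adjusted p = 0.0123) and was lower in each dog, though not past the threshold without dog 3 (-0.42, 0.0542) or dog 4 (-0.45, 0.0641).

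The remaining lists held few changes. Of 9 cytokine receptors, IL2RB rose, from 420, 710, 556 and 590 CPM in singletons to 930, 903, 1061 and 965 CPM (0.73 ± 0.10, adjusted p = 0.000693). It is the chain through which interleukins 2 and 15 signal. Of the others, IL12RB2 (0.87), IL12RB1 (0.65) and IL21R (-1.03) passed over 4 dogs but not without dog 1 (adjusted p = 0.142, 0.0712 and 0.0679) or dog 3 (0.112, 0.185 and 0.103). Without dog 4 the first 2 did not pass either (0.118 each), nor IL21R without dog 2 (0.0828). In dog 2 IL12RB2 was lower in expanded clones (74.5 against 92.0 CPM).

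Of 6 inhibitory receptors and exhaustion genes tested, CTLA4, the receptor that competes with CD28, was lower in expanded clones, at 5.22, 34.2, 19.9 and 8.17 CPM against 33.2, 63.4, 78.0 and 73.2 CPM (-2.03 ± 0.25, adjusted p = 0.000312). FCRL5 rose (1.34), although it was lower in dog 3, and did not pass without dog 1, 2 or 4 (adjusted p = 0.0842, 0.211 and 0.203). PDCD1 (PD-1) was at 15.7, 29.4, 19.4 and 30.1 CPM against 14.8, 30.0, 13.5 and 28.3 CPM, a log2 fold change of 0.12 ± 0.16. HAVCR2, TOX and CD101 did not pass either. TOX was at 82.2, 175, 63.5 and 154 CPM in expanded clones and 76.8, 66.3, 81.1 and 69.0 CPM in singletons. Without dog 3, TOX (0.98, adjusted p = 0.00267) and HAVCR2 (1.41, 0.00427) passed. Neither passed without dog 1, 2 or 4.

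Of 11 activation and MHC class II genes, TNFRSF18 (GITR), a co-stimulatory receptor, was at 0.00, 0.60, 0.52 and 1.02 CPM in expanded clones and 6.11, 9.53, 6.76 and 9.66 CPM in singletons (-3.55 ± 0.44, adjusted p = 0.00028). DLA-DQA1 rose by 0.31, and did not pass without dog 1, 2 or 3 (adjusted p = 0.132, 0.162 and 0.0693). Of 10 co-receptor and signalling genes, CD2 rose by 0.28 and did not pass without dog 2, 3 or 4 (0.204, 0.16 and 0.133). Of 5 cell cycle genes, MKI67 fell by 0.98 and STMN1 by 0.42, although STMN1 was higher in expanded clones of dog 1 (325 against 298 CPM). MKI67 did not pass without dog 4 (-0.64, adjusted p = 0.0618) and STMN1 without dog 2, 3 or 4 (0.0812, 0.0918 and 0.0775). Without the largest clone of each dog neither passed (0.12 and 0.0513). None of 7 interferon-stimulated genes passed, with a median of -0.04.

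Outside the lists, genes are named by fold change alone and share no fixed theme. Lower in expanded clones were RFLNB, a regulator of filamin, at 1.30, 3.0, 0.26 and 0.51 CPM against 43.7, 29.1, 33.8 and 11 CPM (-4.73 ± 0.38, adjusted p = 6.06e-06), and RGS10, a regulator of G protein signalling, at 9.13, 25.8, 24.4 and 14.3 CPM against 237, 161, 177 and 64.2 CPM (-2.88 ± 0.19, adjusted p = 9.18e-07). Neither overlapped between sides. CCDC3 (-4.60), the tetraspanin TSPAN5 (-3.04), the CTP synthase CTPS1 (-2.92), the actin crosslinker ACTN1 (-2.70), FAM241A (-2.32), the co-repressor TLE4 (-2.28), the protease inhibitor CSTA (-2.23), the adhesion molecule JAML (-2.10) and the MHC class II chaperone chain DLA-DOA (-2.02) followed. Each of these was lower in 4 of 4 dogs and kept its call without any 1 dog.

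Higher in expanded clones were the adhesion receptor ADGRG1 (GPR56), at 79.6, 83.5, 227 and 143 CPM against 43.7, 51.5, 59.5 and 79.4 CPM (1.13 ± 0.17, adjusted p = 0.00108), and CLNK, an adaptor of immunoreceptor signalling, at 82.2, 81.7, 124 and 126 CPM against 34.0, 52.4, 42.8 and 53.2 CPM (1.13 ± 0.13, adjusted p = 0.000158), without overlap. IFITM10 (1.31), annexin A5 (ANXA5, 1.30), phospholipase C gamma 2 (PLCG2, 1.21), the vesicle tethering protein SYTL2 (1.07) and DBNDD2 (1.07) also rose and kept their call without any 1 dog. DBNDD2 did not pass without the largest clone of each dog (adjusted p = 0.251). UPB1, an enzyme of pyrimidine breakdown, led by fold change (1.47 ± 0.36) but did not pass without dog 1, 2 or 4 (adjusted p = 0.111, 0.1 and 0.0891).

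Both sides carried the markers of T cells, and markers of other cells were low with 1 exception. CD3E was at 1229 to 1353 CPM in expanded clones and 1130 to 1369 CPM in singletons. CD8A, present by the rule, was at 1544 to 1902 and 1133 to 1405 CPM. CD8B was not found by that symbol. Of 5 B cell markers, 4 summed to at most 4.20 CPM in expanded clones and 4.06 CPM in singletons, with PAX5 at 0 on both sides. The fifth, CD79A, was at 8475 to 10361 CPM against 9987 to 10789 CPM and fell by 0.19 (adjusted p = 0.0429), though not past the threshold without dog 1, 2 or 3 (0.207, 0.343 and 0.0568). The 3 monocyte markers present summed to at most 3.45 CPM in any sum, and the 3 platelet or erythroid markers were at 0.

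Of 5 genes of CD4 helper and regulatory cells, 2 were tested and 1, CD40LG, fell. The 5 summed to 53.5 to 87.1 CPM in expanded clones and 83.8 to 120 CPM in singletons, with CD4 at 0 by the rule. CD40LG was at 5.22, 10.2, 14.9 and 3.07 CPM against 16.6, 22.4, 18.5 and 27.6 CPM (-1.38 ± 0.35, adjusted p = 0.0314), without overlap but not past the threshold without dog 1, 2 or 4 (0.116, 0.0685 and 0.104). FOXP3 averaged 2.18 CPM against 4.98, CCR4 0.82 against 7.80 (neither tested) and GATA3 59.9 against 67.8 (adjusted p = 0.399). The TRB of a singleton was also carried by 5, 24, 44 and 165 cells with CD4 alone in dogs 1 to 4, and that of an expanded clone by 1, 34, 27 and 0. Since the rule gives each singleton 1 CD8A cell and each expanded clone at least 5, shares of the 2 sides are not compared. CTLA4, which was lower in expanded clones, is also a marker by which the study named its regulatory T cell cluster. The median of CD8A UMIs per cell was 3, 4, 4 and 5 in singletons of dogs 1 to 4 and 6, 6, 7 and 6 in expanded clones. The part of CD4 cells in the singleton values above, those of CTLA4 and TNFRSF18 among them, was not tested.

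Cells with a UMI of CCR7 or LEF1 were more frequent among singletons. A UMI of CCR7 or LEF1 was found in 56.2%, 49.2%, 54.4% and 34.9% of singletons of dogs 1 to 4 and in 15.8%, 21.0%, 16.6% and 16.4% of expanded cells. After each cell was thinned to 2000 UMIs, the shares were 47.3%, 38.0%, 46.8% and 21.7% against 9.88%, 10.7%, 10.4% and 8.89%, with the same order in each dog. A GZMB UMI was found in 33.6%, 39.6%, 32.6% and 54.2% of singletons and in 85.9%, 65.8%, 80.8% and 66.1% of expanded cells. As a measure of free RNA, CD4 cells with a CCR7 UMI, at similar median depths of 3841 to 4330 UMIs, had a GZMB UMI in 0.762% to 2.19%. Dog 4, the oldest, had the lowest share of CCR7 or LEF1 cells and the highest share of GZMB cells among singletons; age was not tested, since ages and dogs cannot be told apart.

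When cells with a CCR7 or LEF1 UMI were left out on both sides, an alternative added after the data were seen, 1 gene remained higher and 4 lower of 6942 tested. The higher one was CD160 (0.68 ± 0.10, adjusted p = 0.0163). The lower ones were ACTN1 (-1.53 ± 0.24, 0.0271), ITGB1 (-0.67 ± 0.09, 0.0163), ADIRF and a gene known by its identifier only, ENSCAFG00000014028. CCR7 and LEF1 are among the genes that differed most between sides, so smaller differences follow in part from how the cells were chosen, and the smaller singleton side lowers the number of calls. Over 217 of the genes that had been higher and still had a value, the median log2 fold change was 0.57 before and 0.25 after. Over 236 of the lower genes it went from -0.51 to -0.20. GZMB was then at 0.55 ± 0.15 (adjusted p = 0.289), NCR3 at 0.64 ± 0.17 (0.27), CD28 at -1.11 ± 0.21 (0.0742) and RGS10 at 0.18. The singleton side then held 120, 255, 236 and 226 cells in dogs 1 to 4, and neither CCR7 nor LEF1 can be read in this comparison.

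**Figure D3:**
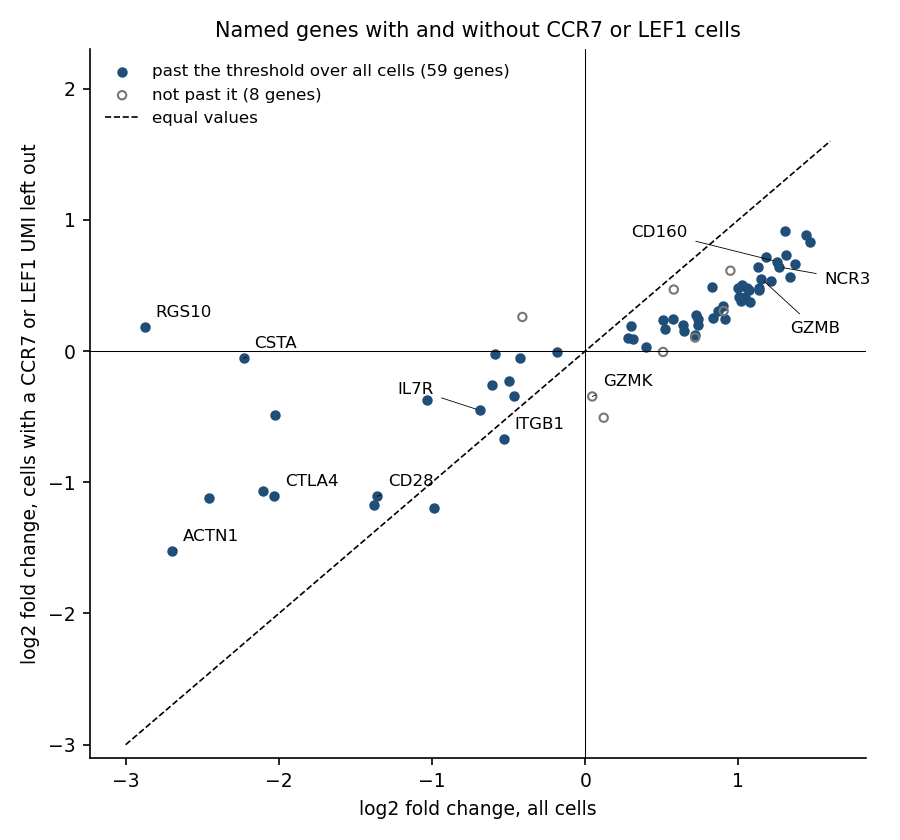
Log2 fold change of expanded against singleton clones for the named genes over all cells (horizontal axis) and after cells with a CCR7 or LEF1 UMI were left out (vertical axis). Filled points are 59 genes past the threshold over all cells, open points 8 genes that were not, and the dashed line marks equal values. Most points lie nearer to 0 on the vertical axis, RGS10 moves from -2.88 to 0.18, and ITGB1 lies below the line.

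Clones of 2 to 4 cells, which were used by neither side, lay beyond the singletons in the direction of expanded clones for most named genes. All 40 named genes that were higher in expanded clones were on average already above the singletons in clones of 2 to 4 cells, and 27 of 29 named lower genes were below them. The named genes had been called against the same singleton sums, which by itself favours this direction. The share over all genes tested was not worked out, so these counts are a description. LEF1 was at 265 CPM ± 83.1 in singletons, 49.0 ± 4.0 in clones of 2 to 4, 35.5 ± 6.3 in clones of 5 to 9 and 52.1 ± 6.8 in clones of 10 or more (SD, n = 4 dogs). CCR7 went from 117 ± 45.3 CPM to 23.9 ± 23.4, 22.8 ± 8.8 and 11.7 ± 7.5 CPM. A steady order over the 4 size classes was found for 8 of 40 higher and 5 of 29 lower genes. The number to be looked for if the larger classes had no order was not worked out.

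GZMB was at 818 CPM ± 307 in singletons, 1683 ± 462 in clones of 2 to 4, 1252 ± 508 in clones of 5 to 9 and 2015 ± 408 in clones of 10 or more. The clones of 5 to 9 cells thus lay between singletons and smaller clones, within 1 SD of the latter. KLRD1 had the same shape, with 370 ± 68.9, 593 ± 65.3, 461 ± 177 and 805 ± 110 CPM. CD160 was at 81.2 ± 27.0, 158 ± 52.4, 160 ± 36.0 and 215 ± 68.9 CPM, about equal in clones of 2 to 4 and of 5 to 9. IL7R and CD28 were lowest in clones of 10 or more, at 250.5 ± 159.6 and 18.8 ± 10.5 CPM, against 492 ± 217 and 51.0 ± 24 CPM in clones of 5 to 9 and 474 ± 121 and 67.7 ± 13.6 CPM in singletons. Just inside and outside the rule, clones of 5 and of 4 cells had GZMB at 1310 ± 238 and 2015 ± 954 CPM and LEF1 at 28.0 ± 8.5 and 69.0 ± 30.3 CPM.

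**Figure D4:**
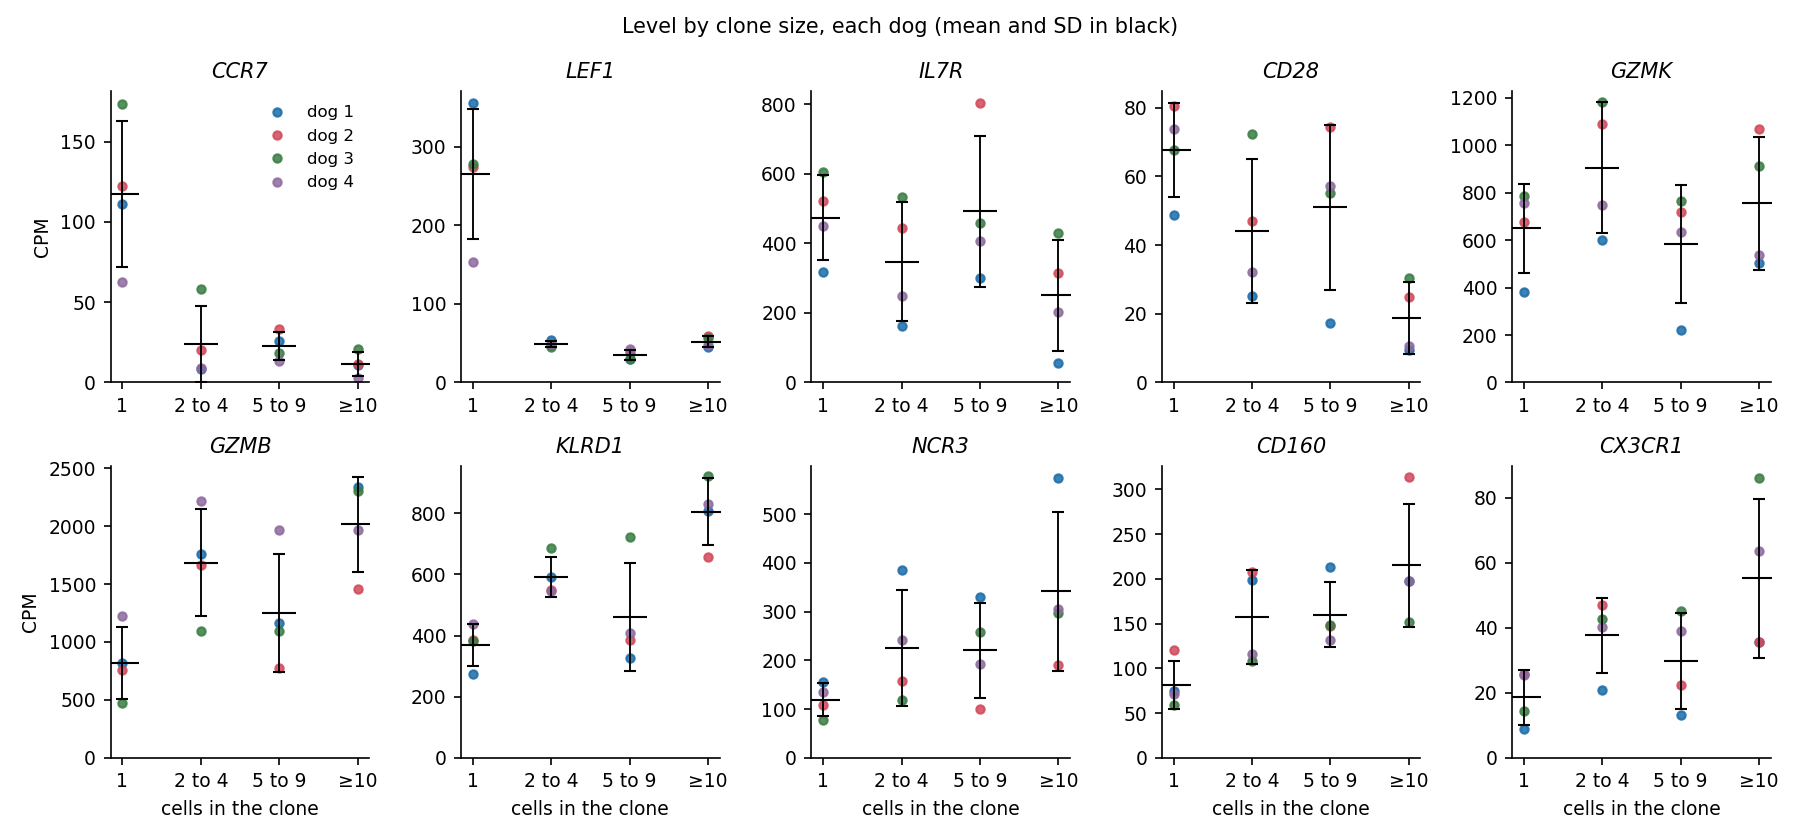
CPM of 10 genes (vertical axes) in clones of 1, 2 to 4, 5 to 9 and 10 or more cells (horizontal axes). Coloured points are the 4 dogs, and the black line and bar are their mean and SD. CCR7 and LEF1 drop between singletons and clones of 2 to 4, while IL7R and CD28 are lowest in clones of 10 or more and GZMK has no steady direction.

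Expanded clones differed widely from each other. Over 153 clones GZMB ran from 0 to 6757 CPM with a median of 1413, and 85 of them lay above the singleton sum of their own dog. NCR3 and CD160 were above it in 102 clones each and KLRD1 in 100. LEF1, in contrast, was above it in 1 of 153 clones and CCR7 in 6. Values above the singleton sum were thus rare for CCR7 and LEF1 and more frequent for GZMB, NCR3, CD160 and KLRD1. This does not show low CCR7 in each clone, since its singleton sums were at 62.8 to 173 CPM. At such levels few UMIs are to be looked for in a small clone, and 109 of 153 clones had no CCR7 UMI. The sums mix cells, with a CCR7 or LEF1 UMI in 34.9% to 56.2% of singletons and a GZMB UMI in 32.6% to 54.2%. The counts therefore cannot tell which genes were shared more evenly by the clones. In dog 2, the 60-cell clone held 39.5% of the TBX21 UMIs of the expanded clones, 38.5% of CX3CR1, 29.2% of ITGAM and 62.7% of KLRB1. Only 11, 9 and 10 of dog 2's 29 clones lay above its singleton sum for TBX21, CX3CR1 and ITGAM. Without the largest clone of each dog, TBX21 (1.05, adjusted p = 0.0357), CX3CR1 (1.33, 0.0335) and ITGAM (1.22, 0.0357) still passed over the 4 dogs. In clones of 5 to 9 cells a value rests on few cells, so the following is about clones of 10 or more cells.

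Within the 73 clones of 10 or more cells, FCER1G was rare in most and frequent in some. Fewer than 10% of the cells had an FCER1G UMI in 53 clones, 44 of them with no such cell, and more than 50% had one in 17 clones, 10 of them with over 90%, and 3 clones lay between 10% and 50%. Dog 4's 120-cell clone had an FCER1G UMI in 120 of 120 cells, and dog 3's 116-cell clone in 104 of 116. Dog 3's largest clone had it in 0 of 146 cells, where 3 UMIs, the limit that a count of 0 allows, are 5.41 CPM. Dog 3's 122-cell clone had none either, so that clones of 1 library with no FCER1G UMI stood beside one with it in most cells.

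The 17 clones came from all 4 dogs, with 3 of 7, 4 of 10, 3 of 24 and 7 of 32 clones in dogs 1 to 4, and used 8 TRBV genes. In 5 of them a cell carried a TRAV9-11/TRAJ28 chain, against 2 of the 53 clones with few FCER1G cells. Among singletons, 12.7% to 26.5% of the cells of a dog had an FCER1G UMI. The sums over clones do not show this, with FCER1G at 348, 454, 203 and 588 CPM in expanded clones and 221, 365, 261 and 180 CPM in singletons (0.51 ± 0.22, adjusted p = 0.239).

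KLRB1 and GZMK also differed from clone to clone. A KLRB1 UMI was found in over 50% of the cells in 44 clones and in fewer than 10% in 26, 18 of them with none, which left 3 between. For GZMK, 52 clones had over 50% and 17 had fewer than 10%, 14 of them with none, with 4 between. Between the sums of both sides neither gene passed (KLRB1 0.72 ± 0.25, adjusted p = 0.116; GZMK 0.05 ± 0.11, 0.889), although KLRB1 did without dog 2 (0.99, adjusted p = 0.0353). CCL5 was spread more evenly, with 18 clones under 10%, 22 between 10% and 50% and 33 over 50%. For CD160, 50 clones lay between 10% and 50%. A UMI share grows with depth and with the level of a gene, so that an even spread can also come from a low level.

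The largest clones show how these genes were combined. Dog 3's 146-cell clone had a UMI of GZMB in 140 cells, of KLRB1 in 135, of GZMK in 130, of CCL5 in 2 and of FCER1G in none. Dog 4's 120-cell clone had FCER1G in all cells and CCL5 in 80, but GZMB in 24, GZMK in 1 and KLRB1 in 1. Dog 4's 60-cell clone had CCL5 in 60 cells, GZMK in 58, KLRB1 in 54, GZMB in 50 and FCER1G in 2.

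In dog 2, the 60-cell clone had KLRB1 in 58 cells, GZMB in 55, GZMK in 49 and CCL5 in 2, without FCER1G. The 51-cell clone of the same dog had GZMK in 51 cells and CCL5 in 31 but KLRB1 in 1, and the 29-cell clone had FCER1G in 29 cells, CCL5 in 21 and GZMB in 12, with GZMK in 1 and KLRB1 in none. Clones of 1 dog thus differed from each other in ways that the sum of that dog does not show.

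**Figure D5:**
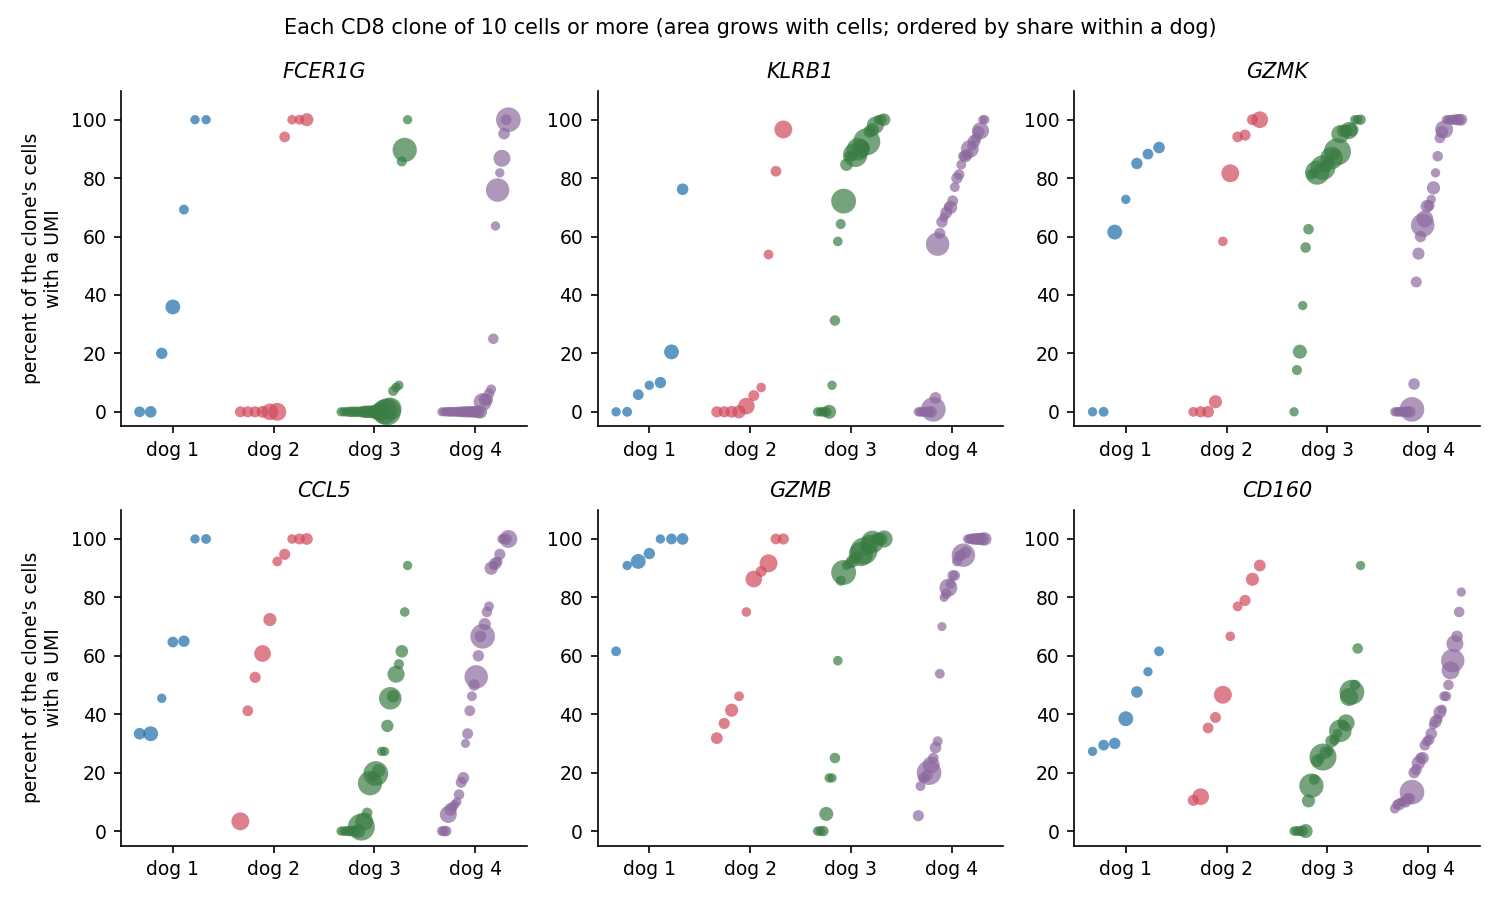
Percent of the cells of a clone with a UMI of the named gene (vertical axes) for each of the 73 clones of 10 or more cells, by dog (horizontal axes). Each point is a clone, its area grows with the number of cells, and clones are ordered by their share within a dog. For FCER1G, 53 clones lie under 10% and 17 over 50%, for KLRB1 26 and 44, and CD160 has most clones between 10% and 50%.

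As a description without a test, since the clones were grouped by a measured gene, the 17 clones rich in FCER1G were set beside the 53 with little of it. Median GZMB was 1595 CPM in the former (27.5 to 4416) and 2625 CPM in the latter (0 to 6757), and median GZMK 486 and 881 CPM. Median KLRB1 was 244 and 673 CPM and median CD160 275 and 146 CPM, with overlapping ranges for each. KLRD1 (1151 and 900 CPM) and NCR3 (275 and 243 CPM) had closer medians. These medians pool clones of 4 dogs, and the dogs gave unequal parts of the clones. KLRB1 also differed by dog, with a UMI in over 50% of cells in 1 of 7, 3 of 10, 17 of 24 and 23 of 32 clones of dogs 1 to 4. Differences between dogs and between the groups cannot be told apart here. The order within each dog was not worked out.

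Expanded clones with a TRAV9-11/TRAJ28 chain numbered 6, 3, 7 and 3 in dogs 1 to 4, with 87, 28, 156 and 65 cells, and the other expanded clones 10, 26, 39 and 59. KLRD1 was at 1125, 856, 1181 and 1301 CPM in the former and 350, 553, 849 and 705 CPM in the latter, higher in each dog and without overlap. These values were not tested. Of the 8143 genes, 7.6% had 4 values of the former that did not overlap those of the latter, 2.35% with all above and 5.26% with all below. NCR3 was at 782, 413, 448 and 492 CPM against 311, 146, 269 and 268 CPM, also without overlap. GZMB was at 2816, 3094, 2116 and 3358 CPM against 1418, 1123, 2116 and 1872 CPM, equal in dog 3 and higher in the others.

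IL7R was lower in the TRAV9-11/TRAJ28 clones, at 9.70, 51.6, 131 and 95 CPM against 210, 498, 478 and 255 CPM, and so was TOX, at 22.6, 30.9, 6.23 and 20.7 CPM against 123, 184, 71.7 and 162 CPM, both without overlap. FCER1G was higher in dogs 1 to 3 and lower in dog 4, at 524, 1629, 980 and 112 CPM against 230, 382, 90.9 and 620 CPM. These values rest on 3 to 7 clones per dog. Cells in which this chain was read were also left out on both sides, 78, 21, 136 and 60 expanded cells in dogs 1 to 4. Then 255 genes were higher and 289 lower. Of the genes called before that still had a value, 206 of 221 higher and 255 of 271 lower ones were called again. Cells of these clones in which the chain was not read stayed in, as did singletons without a TRA.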

How the data were processed

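Unnormalized UMI counts for each gene and barcode were deposited, made by the authors with Cell Ranger 5.0.1 (CanFam 3.1), with lists of productive V(D)J rearrangements per barcode. The gene list of dog 1 was of another length, so the list of dogs 2 to 4 named the 20257 genes of all matrices, 4453 of them by identifier only. Which V and J gene set was used is not known here. Doublets were not called; cells with more than 1 TRB were left out (205 of 6427 CD8A+CD4- cells) and 1127 cells had no TRB. A further 4 lists held markers of other cells.

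Counts were summed per dog and side, filtered with filterByExpr, scaled by TMM and tested with edgeR 4.0.16 (glmQLFit, glmQLFTest; R 4.3.3), with the dog as a block and Benjamini-Hochberg adjustment (threshold 0.05). CD8A, CD4 and 46 receptor genes were kept in the totals and out of the tests. Both sums of a dog come from 1 animal, and their deviations from the side means correlated at r = 0.315, 0.282, 0.461 and 0.318 over 5451 genes, against at most -0.0096 with another dog. Because deviations were taken from the mean of the same 4 dogs, a positive value within a dog pushes those with other dogs to negative values. DESeq2 1.42.0, other scalings, filters, clone definitions and cell sets were alternatives. Single values were compared with exact sign-flip permutation tests over the 4 dogs (scipy 1.17.1). The study tested cells; here the dog is the replicate. In counts simulated with a single dispersion and no differences between dogs or clones, the fit recovered most of the largest changes it had been given. Such counts are simpler than these data.

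Named were the tested members of 12 gene lists and up to 15 genes per direction with the largest log2 fold change among genes past the threshold, with the same sign in 4 dogs, a gene symbol and at least 20 CPM on the higher side; some list members are counted with their list and not reported singly here. The members, rule and lists were chosen with earlier results of these data known, so no list is independent evidence. Sequences are from the deposited rearrangement lists. UMI counts and limits cover counting error only.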

Additional observations from a re-analysis of the deposited data

Results flagged for a closer look

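In 4 of 170 groups of 4 dogs, 1 value lay farther from the others than Dixon's 95% limit (0.83 of the range) allows. Chance flags about 1 in 20 groups, so this is fewer than chance would give. All 4 were singleton values. Dog 4 was high for KLRG1 (158 CPM, others 80.1 to 89.3) and HCST (65.6 CPM, others 45.4 to 48.1) and low for TCF7 (181 CPM, others 255 to 266). Dog 2 was high for ACTN1 (93.0 CPM, others 63.1 to 68.1). Dog 4 was also the dog with the fewest CCR7 or LEF1 cells among its singletons, and the part of this in its values was not tested.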

How the results depend on the processing

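Of 77 named genes 69 were past the threshold, and 43 of these stayed past it without each dog in turn. Without the replicate block, which ignores that both sums of a dog come from 1 animal, 52 genes were higher and 90 lower, and 34 of the 69 named genes were called. The counts higher and lower were 66 and 112 with DESeq2, 411 and 432 with no filter on low counts (13127 genes), 96 to 193 and 123 to 260 without 1 dog, 102 and 129 with at least 2 CD8A UMIs, 35 and 30 with 1 cell per clone, 114 and 143 without the 3 largest clones of each dog, and 1 and 4 without CCR7 or LEF1 cells, a choice of cells that itself lowers the difference. The count higher was 148 without the largest clone, 145 with cells thinned to 2000 UMIs and 374 without FCER1G cells. The other settings (size factors, clones from 3 or 10 cells, nucleotide clones, clone size over all cells, without TRAV9-11/TRAJ28 cells or dog 1 cells with a TRB of dog 4, receptor genes kept) stayed within 1.5 times.

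Of the called genes, RGS10 (0.18 without CCR7 or LEF1 cells) and ITGB1 (0.027 with 1 cell per clone) changed sign. So did genes that were not called. GZMK ran from -0.094 to 0.22 without 1 dog and was at -0.12 with 1 cell per clone, -0.032 with clone size over all cells, -0.069 with 2 CD8A UMIs, -0.35 without CCR7 or LEF1 cells and -0.12 without the 3 largest clones. PDCD1 ran from -0.0086 to 0.21 without 1 dog and was at -0.090 with 1 cell per clone, -0.0020 with size over all cells, -0.51 without CCR7 or LEF1 cells and -0.062 without the 3 largest clones. Without CCR7 or LEF1 cells FCER1G was at -0.0068 and TCF7 at 0.26. The cause was not tested. The difference in median UMIs ran from -266 to 84.3 and that in TRAV9-11/TRAJ28 clones from -3.89 to 8.42 percentage points without 1 dog. FCER1G, CCR7 or LEF1, the 3 largest clones and the dog 4 receptors were chosen after seeing the data.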
